A study of Mus musculus with 2 samples.

Results

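Binding sites of the forkhead transcription factor Foxp4 were examined at 10 genes of the TGF-beta family. They comprise 7 receptor genes (Tgfbr1, Bmpr1a, Tgfbr2, Acvr2a, Acvr2b, Bmpr2 and Tgfbr3) and 3 genes of secreted proteins (Inhbb, Bmp6 and Fst). A peak was taken as belonging to one of these genes if the deposited annotation assigned it to that gene as the nearest start site, or if it lay within 100 kb of the gene body on mm10. This gave 19 peaks of the 3317 in the list, at 9 of the 10 genes. The genes were chosen with these peaks in view, so the counts and scores below are a description and carry no test.

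Cells were stromal vascular fraction (SVF) cells from the inguinal fat (iWAT) of C57BL/6 mice, the mixture of progenitors, fibroblasts and other cells left once adipocytes are removed. They were cultured for 3 days with 20% FBS until confluent. Induction towards beige adipocytes then took 48 h, with 10% FBS, 5 µM troglitazone, 50 nM T3, 1 µM dexamethasone, 0.5 mM isobutylmethylxanthine and 5 µg/ml insulin. Chromatin immunoprecipitation and sequencing (ChIP-seq) with a Foxp4 antibody gave 1 ChIP library beside 1 input DNA library from cells treated in the same way, and the peaks come from the ChIP library. With 1 library no value has a replicate error, read depth is unknown, and binding gives no measure of how strongly a gene was expressed or of which cells in the mixture held the factor.

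Ligands of the TGF-beta family are secreted dimers that bring type II and type I receptor kinases together at the cell surface. The type II kinase phosphorylates the type I kinase, which in turn phosphorylates Smad proteins that enter the nucleus. TGF-beta and activins are known for holding back the differentiation of fat cell progenitors, and several BMPs for promoting commitment to the adipocyte lineage.

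By the file's nearest start site, 15 peaks were assigned to 9 of the 10 genes, against 9.11% of 21887 protein-coding genes with an assigned peak. Within 100 kb of the gene body lay 17 peaks, again at 9 of the 10, against 27.7% of all protein-coding genes. Of the 19 peaks, 13 met both criteria, 2 were assigned from farther away and 4 lay in the window but were assigned to a neighbouring gene. Bmpr2, a type II receptor of BMPs, had no peak by either criterion. Long genes collect more peaks: among the 6007 protein-coding genes with a body of at least 40 kb, 16.8% had an assigned peak and 35.2% had one within 100 kb. Of the 10 genes, Inhbb and Fst have shorter bodies than this. When peaks below the median score of the list were left out, 4 of the 10 (Tgfbr1, Tgfbr2, Acvr2a and Inhbb) had an assigned peak, against 5.14% of protein-coding genes. A peak of that score within 100 kb was then found at 4 (Tgfbr1, Tgfbr2, Tgfbr3 and Inhbb), against 16.6%.

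**Figure D1:**
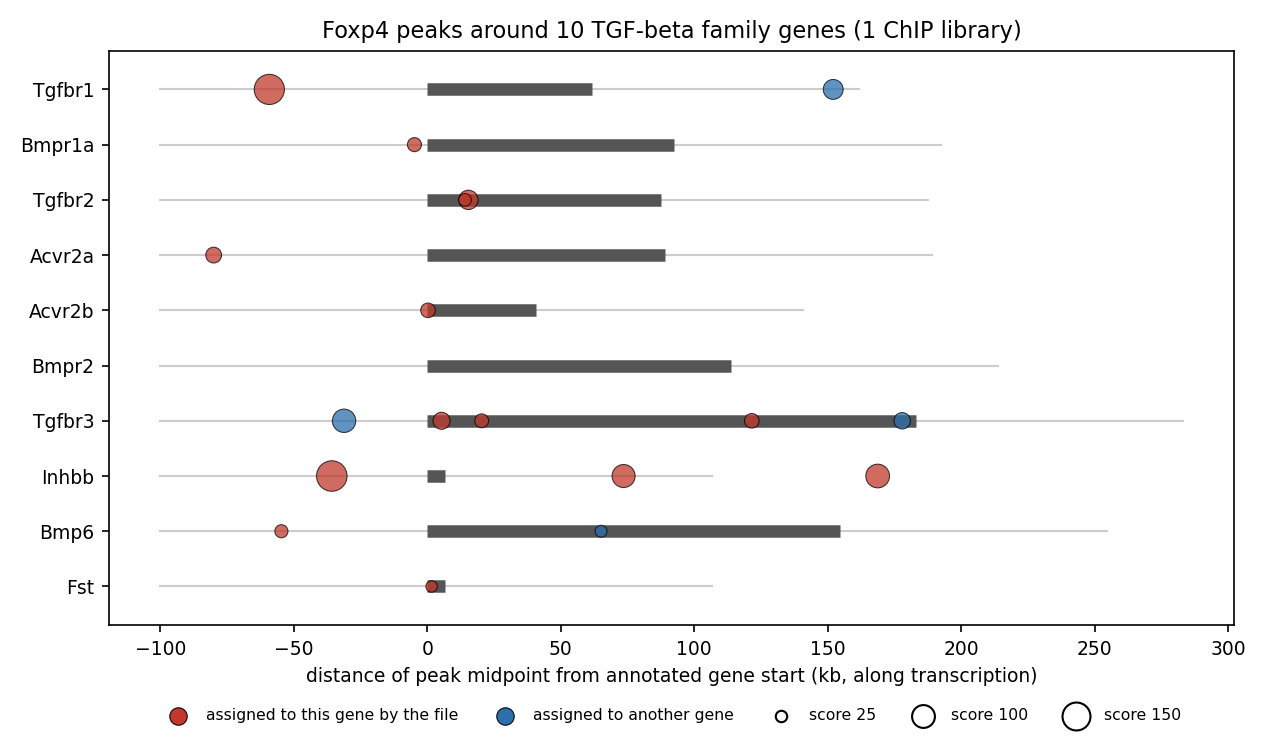
Positions of the peaks along each gene, with the annotated start at 0, the gene body as a dark bar and the window of 100 kb on each side as a thin line (x axis, kb along transcription). Circle area follows the score and colour shows whether the file assigned the peak to that gene; Bmpr2 has none, and the Acvr2a peak 816 kb upstream is outside the plotted range.

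Each peak carries a whole-number score from the authors' processing, whose formula is not given, so it is not read here as strength of binding. The 19 scores had a median of 52 and ran from 25 to 179, whereas all 3317 peaks had a median of 65, with quartiles of 41 and 104, and a maximum of 2569. At or above the median of the list lay 8 of the 19, a level reached by 50.1% of all peaks, and 2 scored under 30, as did 13.0% of all peaks. At or above the upper quartile lay 4 of the 19, against 25.2% of all peaks. These were the peaks at Inhbb (179 and 108), Tgfbr1 (175) and Tgfbr3 (105).

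Scores differed with position among the 19 peaks. The 9 peaks inside the bodies of 5 of these genes, counting the peak over the start of Acvr2b, scored 25 to 72, with a median of 41. The 10 peaks outside the bodies scored 33 to 179, with a median of 102. The ranges overlap, since the outlying peaks of Bmpr1a (38), Bmp6 (33) and Acvr2a (48) scored no higher than several of those inside. Over the whole list, the 1517 peaks in any protein-coding gene body had a median of 64 and the 1800 others had one of 65. That split is not the same, since the 19 peaks were divided by the body of their own gene. The Tgfbr1 peak with a score of 175, outside Tgfbr1 but inside Col15a1, counts as inside in the whole list. The contrast among the 19 peaks was noticed after the scores were seen and was not tested.

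**Figure D2:**
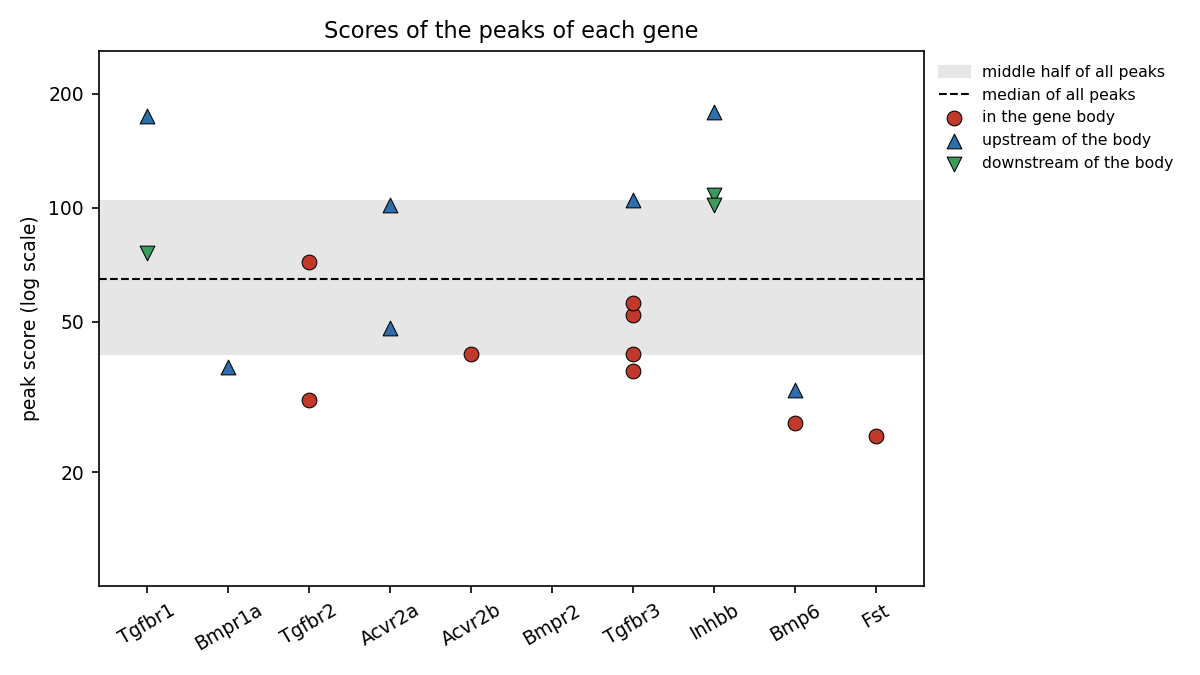
Score of each peak (y axis, log scale) for the 10 genes, with symbols for peaks in, upstream of and downstream of the gene body. The grey band spans the quartiles of all peaks, 41 to 104, and the dashed line marks their median of 65; the 3 highest symbols are Inhbb (179), Tgfbr1 (175) and Inhbb (108), and the peaks inside gene bodies lie at 72 or lower.

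Among the type I receptors, Tgfbr1, the signalling receptor of TGF-beta, had a high-scoring site at a distance and none in its body. The peak had a score of 175 (rank 336 of 3317), lay 59.1 kb upstream of the start site at chr4:47293649-47294527 and, with 879 bp, was the widest of the 19. It fell in intron 28 of 39 of the neighbouring gene Col15a1, which encodes a chain of collagen XV, on an L2 element, an old class of transposon. Tgfbr1 had the nearest start site, although the peak lay inside another gene. A second peak, with a score of 76, lay 90.2 kb past the end of Tgfbr1 at chr4:47505117-47505452 and was assigned to Sec61b, a subunit of the protein translocation channel. The genes Alg2 and Sec61b lie between it and the start of Tgfbr1.

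Bmpr1a, a type I receptor of BMPs, had 1 peak, with a score of 38, at chr14:34507961-34508270. It was intergenic and lay 5.57 kb upstream of the start site named by the file. No other protein-coding gene lay in between, and the next peak beyond the window was 563 kb from the gene. Its score was higher than that of 21.1% of all peaks.

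Among the type II receptors, Acvr2b had the single peak of the 19 that was annotated as a promoter peak. It encodes a type II receptor of activins, myostatin and other ligands. The peak had a score of 41, higher than that of 24.8% of the list, and spanned chr9:119401565-119402190 with a width of 626 bp. Its midpoint lay 301 bp upstream of the start site that the file names, and the peak covers both that start, at 119402178, and the outer start of the gene in the RefSeq table, at 119401583. The promoter class holds 8.38% of the list.

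The promoter of Acvr2b is printed because the peak covers 263 of its 300 bases. The promoters of Bmpr2, without a peak in its window, and Tgfbr2, whose peaks lie in intron 1, are printed beside it because they hold forkhead letters that the Acvr2b promoter lacks. The sequences are those of RefSeq (GRCm38.p6) in the direction of transcription, from 250 bases before the start site to 50 after it, and lie at chr9:119401928-119402227 (plus strand) for Acvr2b, chr1:59764029-59764328 (plus strand) for Bmpr2 and chr9:116175314-116175613 (minus strand) for Tgfbr2. Capitals mark TTGTTGTT in Acvr2b and TGTTTNC in the others.
Acvr2b: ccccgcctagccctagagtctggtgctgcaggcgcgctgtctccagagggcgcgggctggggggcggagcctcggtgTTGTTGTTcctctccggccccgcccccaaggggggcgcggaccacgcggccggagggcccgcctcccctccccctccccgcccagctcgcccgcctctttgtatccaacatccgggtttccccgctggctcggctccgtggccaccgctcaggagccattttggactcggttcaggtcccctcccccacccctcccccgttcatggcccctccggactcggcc
Bmpr2: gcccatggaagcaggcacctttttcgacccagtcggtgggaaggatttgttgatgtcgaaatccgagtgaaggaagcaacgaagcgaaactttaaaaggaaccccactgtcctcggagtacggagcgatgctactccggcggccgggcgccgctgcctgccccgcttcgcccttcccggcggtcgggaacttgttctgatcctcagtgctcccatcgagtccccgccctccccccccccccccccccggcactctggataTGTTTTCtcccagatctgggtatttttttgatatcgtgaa
Tgfbr2: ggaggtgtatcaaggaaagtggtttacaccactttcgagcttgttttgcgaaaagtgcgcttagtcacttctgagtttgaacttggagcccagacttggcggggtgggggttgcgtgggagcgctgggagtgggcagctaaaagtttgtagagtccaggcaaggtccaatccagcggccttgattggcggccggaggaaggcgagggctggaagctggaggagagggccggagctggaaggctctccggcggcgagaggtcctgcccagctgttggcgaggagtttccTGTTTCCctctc

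The forkhead letters TGTTTAC and TGTTTGC, searched on both strands, were in none of the 9 promoters that the table holds for 8 of the 10 genes. They were in 3.65% and 5.07% of all 32851 promoters of the same length. The looser form TGTTTNC, which includes both, was in 2 of the 9 and in 20.5% of all promoters. It began 11 bases into the transcript of Bmpr2 and 39 bases into that of Tgfbr2, neither of which had a peak there. The run TTGTTGTT can overlap a TGTTTNC match with its last letters, although it did not in the Acvr2b promoter, which held no such match. It was searched after the repeat annotations had been seen. It was in 1 of the 9 promoters, that of Acvr2b, 173 bases before the start site and inside the peak, and in 1.68% of all promoters. The Acvr2b promoter is 73.3% G and C, with 27 CpG dinucleotides, whereas all promoters have medians of 52.7% and 7. The main promoters of Acvr2a, Bmpr1a and Tgfbr1, which had no peak, were richer, with 80.3%, 79.3% and 74.7%.

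Tgfbr2, the type II receptor that binds TGF-beta itself, had a pair of peaks in intron 1 of 7. They lay 766 bp apart, 15.4 and 14.2 kb into the gene. The inner peak, at chr9:116159765-116160113, had a score of 72 and lay on a (CAA)n repeat, which reads TTG on the other strand. T-run and G repeats of this kind, with 2 to 5 T and 1 G, were annotated at 6.39% of all peaks, and this was the only 1 of the 19 on such a repeat. The other, at chr9:116160879-116161525, had a score of 31, no repeat annotated and a width of 647 bp. Another peak within 1 kb was found for 1.93% of the list.

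Acvr2a, the other activin type II receptor among the genes, had peaks only at a distance. One with a score of 48 lay 80.0 kb upstream at chr2:48733950-48734308, and one with a score of 102 lay 816 kb upstream at chr2:47998249-47998687. No protein-coding gene body lies between either of them and the start of Acvr2a, and the file assigned both to it.

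Bmpr2 stood alone without a peak. Its closest was 184 kb from the gene body, had a score of 64 and was assigned to Gm973. Its body is 114 kb long. Among shorter bodies, those of Tgfbr2 (87.7 kb) and Acvr2b (40.6 kb) held peaks. Those of Bmpr1a (92.3 kb), Acvr2a (89.2 kb) and Tgfbr1 (61.7 kb) held none.

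Tgfbr3 encodes betaglycan, a co-receptor that presents TGF-beta ligands and inhibin, and held more peaks in its body than any other of the 10 genes. The body spans 183 kb and held 4 peaks, and a body peak was found at 5 of the 10 genes, against 5.72% of all protein-coding genes and 14.5% of those with a body of at least 40 kb. From the start inwards, the scores were 56 in intron 1 at 5.37 kb (chr5:107284012-107284500), 37 in intron 1 at 20.4 kb (chr5:107269079-107269390), 41 in intron 4 at 122 kb (chr5:107167803-107168307) and 52 in the last intron at 178 kb (chr5:107111509-107111972). All 4 lie below the median of the list. The peak at 20.4 kb lay on a satellite repeat, and the peak in the last intron was assigned to Cdc7, a kinase gene of DNA replication whose start site was closer. Upstream, 31.1 kb from the start, a further peak had a score of 105 (chr5:107320600-107320949). It lay on an L1 element and was assigned to Brdt, a bromodomain gene of the testis.

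Inhbb, whose product is the beta subunit of activin B and inhibin B, had the highest-scoring peak of the 19, near a body of 6.79 kb that itself held no peak. The upstream peak, at 35.7 kb, had a score of 179, higher than that of 90.0% of the list (chr1:119457766-119458205). Downstream, peaks of 102 and 108 lay 73.6 and 169 kb from the start site (chr1:119348488-119348902 and chr1:119253304-119253766), the farther on an L1 element. All 3 were intergenic, no other protein-coding gene lay between them and Inhbb, and their scores were 1.57 to 2.75 times the median of the list. Tgfbr2, Acvr2a, Tgfbr3 and Inhbb, 4 of the 10 genes, had 2 or more assigned peaks, against 1.92% of protein-coding genes. With 3 assigned peaks, Inhbb and Tgfbr3 were among 134 protein-coding genes (0.612%) that had 3 or more.

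Bmp6, a BMP ligand, had low-scoring sites. A peak with a score of 33 lay 54.6 kb upstream (chr13:38290726-38291482), and one with a score of 27 lay in intron 1 of 6 (chr13:38410669-38410987), assigned by the file to the non-coding gene 4930579J19Rik. Beyond the window, 142 kb from the gene, lay a peak with a score of 1098 that was assigned to Bloc1s5, a gene of lysosome-related organelle biogenesis.

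Fst encodes follistatin, which binds activins and keeps them from their receptors. Its 1 peak had the lowest score of the 19, at 25, and lay 1.61 kb inside the gene in intron 1 of 5, on an annotated CpG island (chr13:114457179-114457506). Fst and Acvr2b were the 2 genes with an assigned peak within 3 kb of a start site, against 2.08% of protein-coding genes. Both scores were in the lower part of the list, and 7.87% of all peaks scored lower than the Fst peak.

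At the edge of the window, the farthest peaks inside were those 90.2 kb from Tgfbr1 (score 76) and 79.8 kb from Acvr2a (48). The nearest outside were 114 kb from Tgfbr3 (score 90, assigned to Cdc7), 142 kb from Bmp6 (1098) and 162 kb from Inhbb (108, assigned to it). The windows of the 10 genes covered 2.84 Mb and held 5.99 peaks per Mb, against 1.34 per Mb over the annotated span of the autosomes. These densities are not like for like, since the autosomal span is not limited to windows around genes. The density in windows around other genes was not worked out, and the 10 genes were chosen with their peaks in view. The difference therefore does not show an excess of peaks particular to these genes.

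By class, 9 of the 19 peaks were intergenic, 9 lay in introns and 1 was a promoter peak, and over the whole list the shares were 50.5%, 38.3% and 8.38%. Of the intron peaks, 8 lay in an intron of the gene itself, 6 of them in intron 1, with 2 each in Tgfbr2 and Tgfbr3 and 1 each in Bmp6 and Fst. Repeats were annotated at 5 of the 19 peaks and at 23.3% of all peaks. Of the 15 assigned peaks, 4 lay within 10 kb of the start site and 7 more than 50 kb away. Shares over the whole list were not worked out for these distances, for introns of the gene itself or for intron 1. Those counts therefore do not show a trait particular to these genes.

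Among 80 other genes of the pathway, grouped by role, 12 had an assigned peak and 39 had one within 100 kb. Over all protein-coding genes, the shares were 9.11% and 27.7%. A peak in the window could count for more than 1 gene, as the peak with a score of 602 did for Gdf2 and Gdf10. Of the other type I receptors, 0 of 5 had an assigned peak and 3 had one in the window. One of these, Acvr1b, a type I receptor of activins, held a peak with a score of 133 in its body that the file assigned to Mir6962, which was singled out after its value was seen. The 1 remaining type II receptor, Amhr2, had a peak in the window and none assigned. Among 6 other co- and decoy receptors, Rgma, a BMP co-receptor, had an assigned peak (score 155, 12.5 kb upstream), and 3 of the 6 had one in the window.

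Of 31 other ligands, 2 had an assigned peak and 12 had one in the window. Those with an assigned peak were Gdf15, a stress-induced family member (score 65, 6.21 kb from the start site), and Bmp3 (score 16, 91.9 kb upstream). Of 18 other secreted ligand-binding proteins, 3 had an assigned peak and 10 had one in the window. Ltbp1, which holds TGF-beta in its latent form, had 3 assigned peaks with the highest at 257 in intron 2, above all 19 peaks of the 10 genes. Bmper, a BMP-binding protein, had 4 with the highest at 90.

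Inside the cell, 6 of 19 Smads, Smad regulators and Id genes had an assigned peak and 10 had one in the window. Among assigned peaks, the highest scores were at Pmepa1, a TGF-beta-induced inhibitor of the pathway (109), at Id3, which encodes a repressor of basic helix-loop-helix factors (93), and at Smad6, an inhibitory Smad (77). For comparison, the shares over all protein-coding genes are the 9.11% and 27.7% given above, and the lists were written with earlier results of these data known.

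**Figure D3:**
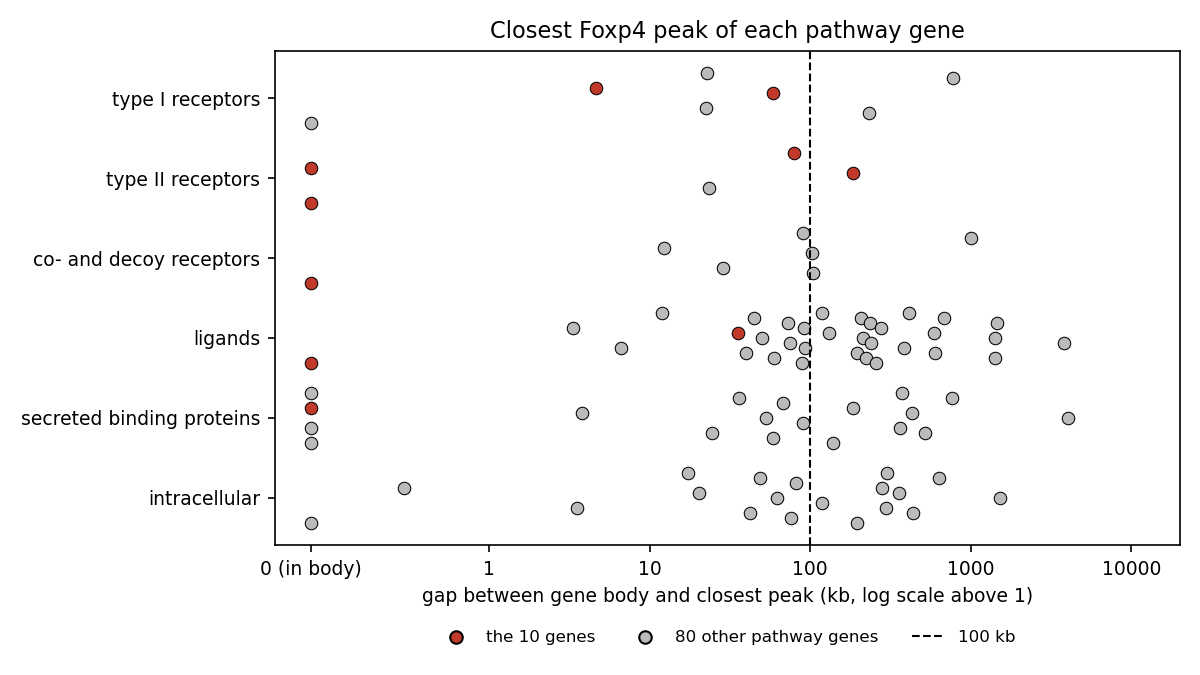
Gap between the gene body and the closest peak (x axis, kb, logarithmic above 1 kb) for the 10 genes and 80 other pathway genes by role, with the dashed line at 100 kb. Of the 10 genes, Bmpr2 lies to the right of the line at 184 kb, and 39 of the 80 others lie within it.

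Likeness to Inhbb and Tgfbr3 was taken from the number and scores of sites in this 1 library. It meant 3 assigned peaks, as in 87 other protein-coding genes, and the nearest summed score. Tgfbr3 had a summed score of 134. The closest were Pcdh18 with 131, Plod2 with 137 and Tbc1d2b with 128. Inhbb had a summed score of 389, and the closest were Fam43a with 395, Tmem167 with 377 and Pla2g4a with 366.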

How the data were processed

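Foxp4 ChIP-seq peaks of 1 ChIP library were analysed; 1 input DNA library was not analysed here. Per the file headers, the authors annotated a narrowPeak file on mm10 with HOMER's annotatePeaks.pl. The submitters' processing notes list MACS2, Bowtie2, SAMtools, Picard and deepTools 3.3.0 but give neither role nor setting. The score is the whole number the authors deposited for each peak; its formula, the use of the input and the treatment of multiply aligned reads are not given in the sources used here. Each could change which peaks appear, including those on repeats. The score was used only within this list.

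All 3317 peaks were kept and 1 line without a peak was left out. Assigned genes, distances, classes and repeats are the file's. Gene bodies came from the RefSeq gene table of GRCm38.p6, the assembly on which mm10 is based. By gene number, 2459 of the 2462 assigned genes were found there. Distances along a gene use the file's start site for assigned peaks and the outer annotated start otherwise. The strand of Tgfbr3 and Fst came from the file's distances. Promoter sequences (250 bases before to 50 after a start) were RefSeq's, GRCm38.p6.

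The members, lists and rules were chosen with earlier results of these data known. All peaks of the 10 genes are named, with up to 3 other genes per role list by highest assigned score, and for the genes with most assigned peaks the 3 nearest in summed score; Acvr1b was added after its value was seen. A result that this rule would name is not reported here. No test was run. The window assignment was tested on simulated data. Alternatives changed the score minimum, the windows and the peak position. Python 3.11.15, pandas 2.3.3, NumPy 2.4.6, SciPy 1.17.1 and Matplotlib 3.10.9 were used.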

Additional observations from a re-analysis of the deposited data

How the results depend on the processing

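Leaving out low scores moved the counts most. Without peaks below the median score of the list, 4 genes had an assigned peak and 4 had one within 100 kb, with 6 assigned peaks, 6 in the windows, 0 genes with a peak within 3 kb, a median score of 103.5 and 2.12 peaks per Mb. Without peaks under a score of 30, 1 gene, Acvr2b, had a peak within 3 kb, and the median was 56; 8 genes had an assigned peak and 8 had one within 100 kb. A promoter window of 1 kb also left 1 gene, and one of 5 kb left 2. The median score was 50 with windows of 50 kb, 64 with windows of 200 kb and 50 without the highest of the 19 peaks. With windows of 50 kb, 7 genes had a peak, and with 200 kb all 10, Bmpr2 included. A wider window can only add peaks at any gene. The shares of all protein-coding genes were not worked out for these windows or for the score minimum of 30. Without peaks below the median score, those shares were 5.14% with an assigned peak and 16.6% with one within 100 kb. At that cutoff, the share with a peak within 3 kb and the density over the autosomes were not worked out. The count of 0 genes and the 2.12 peaks per Mb therefore have no comparison. No paired analysis was possible because there is 1 ChIP library. Read depth is unknown here, and what it would have allowed to be detected at Bmpr2 was not tested.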
